A study of Drosophila melanogaster with 3 samples.

Results

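Bound intergenic sites are the places where GFP-tagged CG4424 was mapped to DNA that lies outside every annotated transcript and away from every annotated transcript start. The optimal set, the list that the authors thresholded on reproducibility between replicates, held 990 of them and 5430 other regions. A site was counted when its summit lay more than 500 bp from any transcript start and inside no transcript of the Ensembl annotation of dm6, with transposable elements left out of the annotation. The other optimal summits lay within 500 bp of a start (3004 promoter sites), in introns (2250) or in exons (176). The regions were mostly 440 bp wide, and 58 of the 990 reached into an annotated transcript although their summits did not.

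The data came from 3 biological replicates of chromatin immunoprecipitation followed by sequencing (ChIP-seq) from whole, mixed sex Drosophila melanogaster embryos collected at 0 to 16 hours. All 3 carried a transgene of CG4424, a zinc finger protein, with a C-terminal GFP tag, and the chromatin was pulled down with an antibody against GFP. The labels do not name the promoter that drives the transgene, and an untagged line was not analysed here. The replicates hold 1 group, so each comparison is between classes of sites within the same embryos, and a whole-embryo sample shows an average in which strong binding in few cells and weaker binding in many cannot be told apart.

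Intergenic DNA of the fly holds enhancers, which act on genes at a distance, insulators, which separate neighbouring regulatory domains, and repeats. The proteins Su(Hw) and CTCF bind insulators, GAGA factor binds runs of alternating G and A at promoters and Polycomb response elements, and BEAF-32, DREF and M1BP bind mainly close to the starts of broadly expressed genes. Between neighbouring genes, orientation matters for how a site can be read: divergent genes both start towards the gap, convergent genes both end there, and tandem genes point the same way.

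The summit sequences of some of the strongest sites show both the common type and its exceptions. By signal among the intergenic sites, those printed rank 1, 4, 5, 8 and 9, in that order. Each sequence is the 101 bp window centred on a summit, from the RefSeq genome of the same assembly (dm6), on the plus strand. Capitals mark runs of 6 or more A or T bases, except in the first, which holds no such run and where capitals mark GAGAG or CTCTC.
CG43245 summit, chr3L:10737107-10737207: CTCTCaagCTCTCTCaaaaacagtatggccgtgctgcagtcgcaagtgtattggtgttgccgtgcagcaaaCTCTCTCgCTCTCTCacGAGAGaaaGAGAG
CG31668 summit, chr2L:2202373-2202473: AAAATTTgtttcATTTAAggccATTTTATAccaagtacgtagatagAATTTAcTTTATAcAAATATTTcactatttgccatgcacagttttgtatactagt
Cyp9f2 summit, chr3R:12403075-12403175: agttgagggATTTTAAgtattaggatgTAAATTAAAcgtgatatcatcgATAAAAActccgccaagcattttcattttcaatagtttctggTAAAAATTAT
tara summit, chr3R:16222439-16222539: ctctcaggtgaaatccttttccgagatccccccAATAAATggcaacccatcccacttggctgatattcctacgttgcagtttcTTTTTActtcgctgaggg
hid summit, chr3L:18186376-18186476: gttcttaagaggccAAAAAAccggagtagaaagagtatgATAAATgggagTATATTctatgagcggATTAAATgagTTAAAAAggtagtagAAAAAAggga

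The 2 windows 500 bp to either side of the strongest summit, with the same marking of A and T runs, show how that site departs from the usual pattern.
CG43245 lower flank, chr3L:10736607-10736707: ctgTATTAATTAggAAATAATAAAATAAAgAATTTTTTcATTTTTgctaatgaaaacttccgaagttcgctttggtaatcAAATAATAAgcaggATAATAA
CG43245 higher flank, chr3L:10737607-10737707: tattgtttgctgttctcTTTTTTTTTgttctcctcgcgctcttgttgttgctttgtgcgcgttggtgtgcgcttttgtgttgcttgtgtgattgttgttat
The summit window beside CG43245 was 51.5% GC and held 9 overlapping matches to GAGAG or CTCTC, while its lower and higher flanks were 23.8% and 41.6% GC. The windows beside CG31668 and Cyp9f2, at 26.7% and 28.7% GC, were of the kind most sites had, with 41 and 33 of their 101 bases in A and T runs. The window at hid, at 34.7% GC, held 38 bases in such runs. The upstream tara window, at 47.5% GC, was also richer in GC than the mean of its flanks (23.8%). Among the 15 strongest sites the same held at CG13323 (36.6% against 32.2%), sp3 (43.6% against 32.7%) and slp2 (40.6% against 26.7%). The rest of the 15 had lower GC content at the summit than in the flanks, by little at RasGAP1 (33.7% against 34.2%) and at hid (34.7% against 35.6%).

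Most intergenic summits lay in a narrow AT-rich trough. The median GC content of the 101 bp summit windows was 31.7% (quartiles 26.7% and 37.6%), against 43.1% for the mean of the 2 windows centred 500 bp away. GC content was lower at the summit than in the flanks at 805 of 990 sites and higher at 178 (two-sided exact sign test, adjusted p = 1.1e-94). As a measure of spread, the strongest regions of each replicate were taken, as many as the optimal set holds. In these lists the intergenic summit windows had a median of 32.0% ± 1.51 GC (SD, n = 3), against 43.1% in each replicate's flanks. Averaged over all sites in 20 bp bins, GC content was lowest, at 32.0%, in the bin centred 10 bp from the summit. It was halfway back to its distant level within 80 bp on either side. It then rose above that level, to 45.4% near 290 bp, against 40.6% beyond 800 bp.

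**Figure D1:**
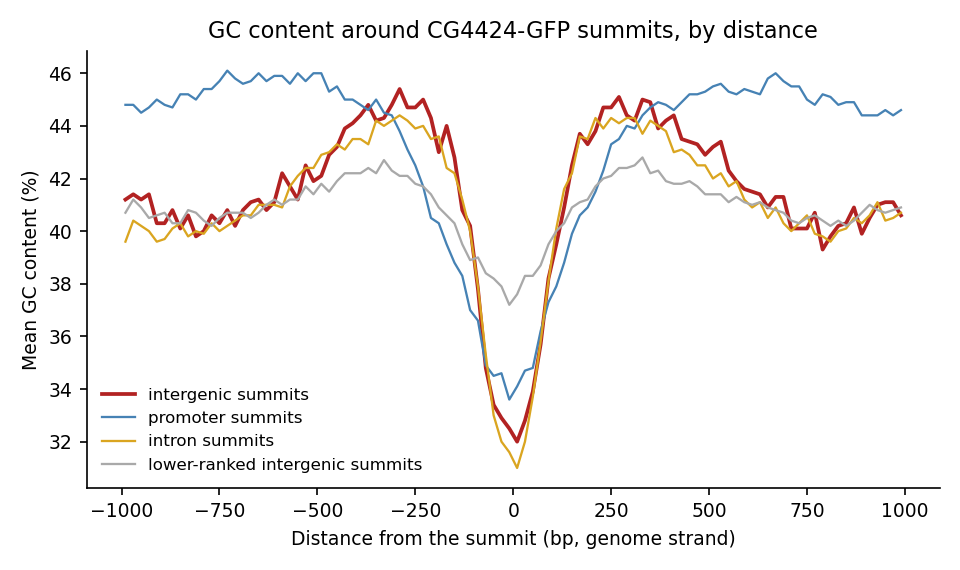
Mean GC content (%) in 20 bp bins against distance from the summit (bp), for intergenic, promoter, intron and lower-ranked intergenic summits. The intergenic line has a trough of 32.0% at its centre and shoulders up to 45.4%, while the lower-ranked line falls only to 37.2%.

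The trough was not particular to intergenic DNA. Intron summits had a median of 30.7% GC against 42.6% in their flanks, and promoter summits 32.7% against 46.0%. The lower-ranked intergenic summits were shallower. These are the 4961 intergenic summits of the pooled list whose regions overlap no optimal region, and their medians were 37.6% at the summit and 41.6% in the flanks. The authors label that list as peaks and background, so a lower-ranked summit can be background rather than a weaker bound site. Within the intergenic sites GC content differed little with signal: the median was 31.7% in the 248 sites of highest signal and 31.2% in the 248 of lowest signal. Only 34 of the 990 windows reached 50% GC, the strongest site among them.

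The short sequences that were more frequent at the summit were largely AT-rich. All hexamers were counted on both strands as present or absent in each window. Of these, 288 were found at more summits than lower flanks (13.8% of those tested) and 473 at fewer (22.7% of those tested; exact McNemar test, adjusted p under 0.05). Among the 36 hexamers made of A and T alone, 35 were more frequent at the summit, and among the 36 made of G and C alone, 22 were less frequent and none was more frequent. When only the 227 sites were kept whose summit and flank windows differed by at most 5 percentage points of GC, 0 hexamers passed the exact McNemar test in either direction, with 57 higher and 37 lower at an unadjusted p under 0.05. That comparison also has fewer sites.

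The 5 hexamers with the highest odds ratio are described one by one, and 276 of 990 summit windows held at least 1 of them, against 93 lower flanks. They were picked on these same windows, so that contrast follows from the choice and is no separate evidence. ATACTA occurred in 8.69% of summit windows and 2.32% of lower flanks (odds ratio 3.93, exact McNemar test, adjusted p = 4.5e-08). It had the highest odds ratio of the 192 hexamers with 1 G or C base, whose median was 1.72. AATAGT occurred in 11.8% of summit windows and 3.43% of flanks (odds ratio 3.72, exact McNemar test, adjusted p = 2.5e-10). TACTAA, which shares its first 5 bases with the end of the first word, occurred in 9.19% and 3.03%, and 36 of the 86 sites with ATACTA held both. Both kinds of match lay toward the summit: of 264 ATACTA matches within 250 bp, 47 were within 25 bp of the summit, and of 354 AATAGT matches, 67 were. The bases around them were mostly A or T, and no base exceeded 43.7% at any of the 4 positions to either side. GACCTA rested on 17 summit windows against 4 flanks and was lost under 8 of the alternative settings, among them the higher flank in place of the lower one (odds ratio 2.06). TAAGGA occurred in 4.65% and 1.52%.

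In the other classes of site, which were not tested, ATACTA was in 8.04% of intron summits and 2.58% of their flanks. It was in 7.49% of promoter summits and 2.16% of their flanks, and in 4.70% of lower-ranked intergenic summits and 2.90% of their flanks. AATAGT was in 11.4%, 9.32% and 7.48% of the summits of the same 3 classes. In the 227 sites of like GC content, ATACTA was in 7.49% of summit windows and 3.96% of flanks, which did not pass (odds ratio 1.84, exact McNemar test, unadjusted p = 0.169).

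Of 32 consensus sequences of fly transcription factors and core promoters, 8 were more frequent at intergenic summits than in their lower flanks (25.0% of those tested) and 1 was less frequent (3.12% of those tested). The TATA box TATAAA was in 21.9% of summit windows and 11.9% of flanks (odds ratio 2.03, exact McNemar test, adjusted p = 2.1e-07). The hunchback site TTTTTTA was in 14.5% and 7.17%, the forkhead site TAAACA in 14.0% and 8.89%, and the homeodomain site TAATTA in 12.6% and 7.17%. The MEF2 site, the Ohler 6 core promoter element and the initiator also passed. GAGAG, the GAGA factor element, was in fewer summits (9.19%) than flanks (12.7%; odds ratio 0.689, exact McNemar test, adjusted p = 0.0469), a call that was lost when any 1 replicate was left out. In the 227 sites of like GC content none of the 32 passed, with 3 higher and 1 lower at an unadjusted p under 0.05. The 3 were the MAD site (8 summits and 0 flanks), the CTCF core (10 and 1) and the initiator (55 and 33). The GATA site was lower (8 and 22).

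The sequence with the highest odds ratio among the consensus sequences was the Su(Hw) core TTGCATAC, found in 14 summit windows (1.41%) and 1 lower flank (0.101%; odds ratio 9.67, exact McNemar test, adjusted p = 0.00446). Its rate was 1.02% at intron summits, 0.599% at promoter summits and 0.887% at lower-ranked intergenic summits. Windows around the core in 4 of the 5 strongest of these sites are printed below on the strand that carries it, with the core in capitals.
ds, chr2L:715517-715548, minus strand: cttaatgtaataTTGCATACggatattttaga
zfh2, chr4:497891-497922, plus strand: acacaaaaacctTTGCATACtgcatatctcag
CG15282, chr2L:14706380-14706411, plus strand: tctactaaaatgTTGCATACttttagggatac
Skel, chr3R:10684508-10684534, plus strand: tcactgtaagatTTGCATACctcatac
The core lay 2.50 bp or less from the summit at the zfh2 and CG15282 sites, 29.5 bp away at the ds site and 39.5 bp away at the Skel site. At every other site of the 14 it lay farther away than at zfh2 and CG15282. The ds site, 579 bp from the start of the atypical cadherin gene dachsous, had signals of 201, 331 and 271 in replicates 1, 2 and 3. The zfh2 site had 171, 235 and 338, the CG15282 site 198, 200 and 205, and the Skel site 108, 179 and 115. The signal is the authors' own value for each region, of unstated scale, so replicates are compared by rank within their own lists. The zfh2 site ranked 407 in replicate 3, above its 1074 and 1366 in replicates 1 and 2, and the CG15282 site ranked 804 in replicate 1, above its 1698 and 1099 in replicates 2 and 3. In all, 11 of the 14 were among the strongest regions in each of the 3 lists. The call was not reached with windows of 100 bp to each side (odds ratio 2.85, exact McNemar test, adjusted p = 0.0725), with a promoter window of 1000 bp (odds ratio 7.00) or among the 426 sites above the median signal (odds ratio 4.33). The CTCF core AGGTGGC was in 19 summit windows and 7 flanks and missed the threshold (exact McNemar test, adjusted p = 0.0772).

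Some promoter-type sequences, but not all, were less frequent at intergenic summits than at promoter summits. Of the 32 sequences, 4 were less frequent at intergenic summits (12.5% of those tested) and 1 was more frequent (3.12% of those tested). The BEAF-32 core CGATA was in 11.3% of intergenic and 22.3% of promoter summits (odds ratio 0.444, Fisher's exact test, adjusted p = 1.3e-13). The DREF and BEAF-32 palindrome TATCGATA was in 0.606% and 3.83% (odds ratio 0.153, Fisher's exact test, adjusted p = 9.9e-08). Ohler 7 (2.73% and 7.12%) and the M1BP site (0.303% and 1.66%) were also less frequent. The low rates were not particular to intergenic sites. Intron summits, which were not tested, had CGATA at 10.6%, TATCGATA at 0.222%, Ohler 7 at 2.53% and the M1BP site at 0.311%. The initiator TCAGT was in 20.8% of intergenic and 16.4% of promoter summits, and the other 27 did not pass. The AT-rich sequences above were about as frequent in both classes. Among them were 2 core promoter sequences, the TATA box TATAAA (21.9% and 21.7%) and Ohler 6 (5.66% and 5.49%).

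Intergenic sites were weaker than the rest of the optimal set but reached nearly its top. Their median deposited signal was 290 (range 186 to 10608), against 342 at promoters, 309 in introns and 325 over all other optimal sites. These values come from the 1 pooled list. The replicate lists ran on different levels, with medians of 76.9, 121 and 98.8 for the intergenic summits among the strongest regions of replicates 1, 2 and 3. Of the 990, 426 (43.0%) lay above the median of the optimal set, against 2784 of 5430 others (51.3%; odds ratio 0.718, Fisher's exact test, adjusted p = 5.1e-06). Against promoter sites the odds ratio was 0.636 (adjusted p = 3.4e-09, Fisher's exact test) and against intron sites 0.834 (adjusted p = 0.0294, Fisher's exact test). The intron call was lost with a promoter window of 1000 bp (0.873), with protein-coding genes only (0.876) and among the regions of highest signal (0.827). Within each replicate's own strongest regions, 42.7% ± 2.32 of intergenic and 51.3% ± 0.421 of other summits lay above that list's median (SD, n = 3). Regions share gaps and are not independent of each other. With only the strongest site of each gap between protein-coding genes kept, which raises signal by construction, the odds ratio against all other sites was 0.982 and no longer passed.

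**Figure D2:**
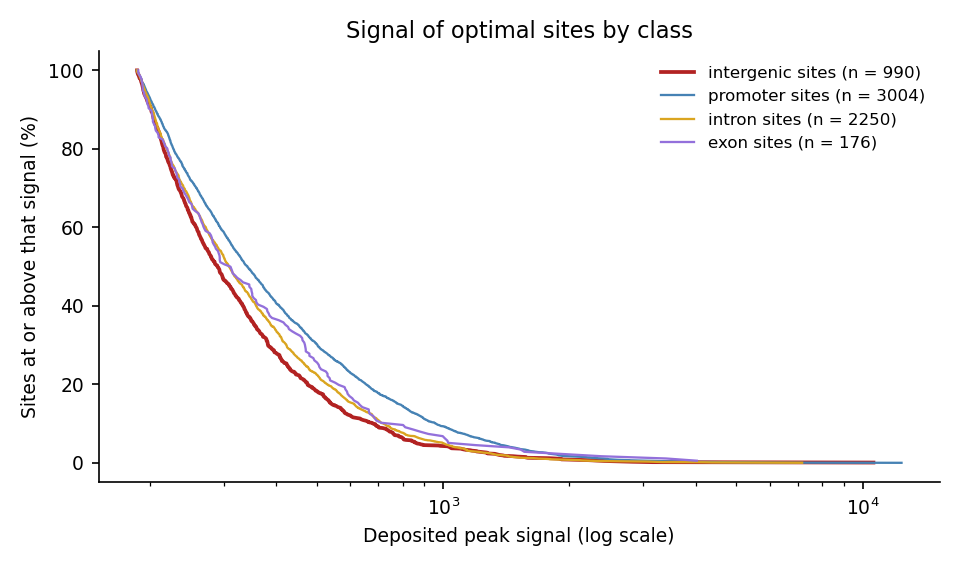
Percent of optimal sites at or above each deposited signal (log scale), for intergenic, promoter, intron and exon sites. The intergenic curve lies below the promoter and intron curves over most of the range, with a median of 290 against 342 and 309, and ends at a single site of 10608.

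The intergenic share was 15.4% of the optimal set (exact 95% interval 14.5% to 16.3%) and 23.3% of the 21288 lower-ranked regions. By replicate it was 15.2% ± 0.0768 of the strongest regions and 22.2% ± 0.638 of the rest of each list (SD, n = 3). It was 8.88% among the 642 optimal sites of highest signal and 17.8% among the 642 of lowest signal. The sites above a signal of 1000 numbered 42, and those above 2000 numbered 8.

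Nearly every intergenic site was seen in all replicates when each full list was used: 986 of 990 (99.6%) overlapped a region of all 3, against 99.1% of all other optimal sites, 2973 of 3004 promoter sites and 99.4% of intron sites, which were not tested. The optimal set was itself chosen on reproducibility, and the full lists hold 22198 to 30000 regions. Overlap this high therefore follows from how the set was made and is no separate support. Against the strongest regions of each replicate, 702 sites (70.9%) overlapped all 3, 215 overlapped 2, 72 overlapped 1 and 1 overlapped none. All other optimal sites overlapped all 3 at 77.1% (odds ratio 0.722, Fisher's exact test, adjusted p = 6.8e-05). Promoter sites stood at 79.2% (odds ratio 0.642, Fisher's exact test, adjusted p = 4.6e-07) and intron sites at 74.8% (odds ratio 0.823, Fisher's exact test, adjusted p = 0.0326). Replicate 2 contained 91.3% of the intergenic sites among its strongest regions, replicate 3 87.5% and replicate 1 84.6%. Support followed signal: all 3 replicates overlapped 99.6% of the 248 sites of highest signal and 18.1% of the 248 of lowest signal. This trend was built in, since the strongest regions are picked by signal and the pooled signal comes from the same 3 replicates. The overlap differences between classes are therefore not separate from their differences in signal. With the strongest site per gap the odds ratio against all other sites was 0.936 and did not pass. The intron comparison was lost without replicate 1 (0.853), without replicate 3 (0.930), with a promoter window of 1000 bp (0.841), with protein-coding genes only (0.898) and with a reciprocal overlap of 50% (0.879). Over the sites, Spearman's rho between the signals of 2 replicates was 0.751, 0.777 and 0.795 (n = 986 to 989 sites, which share a common choice on pooled signal).

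**Figure D3:**
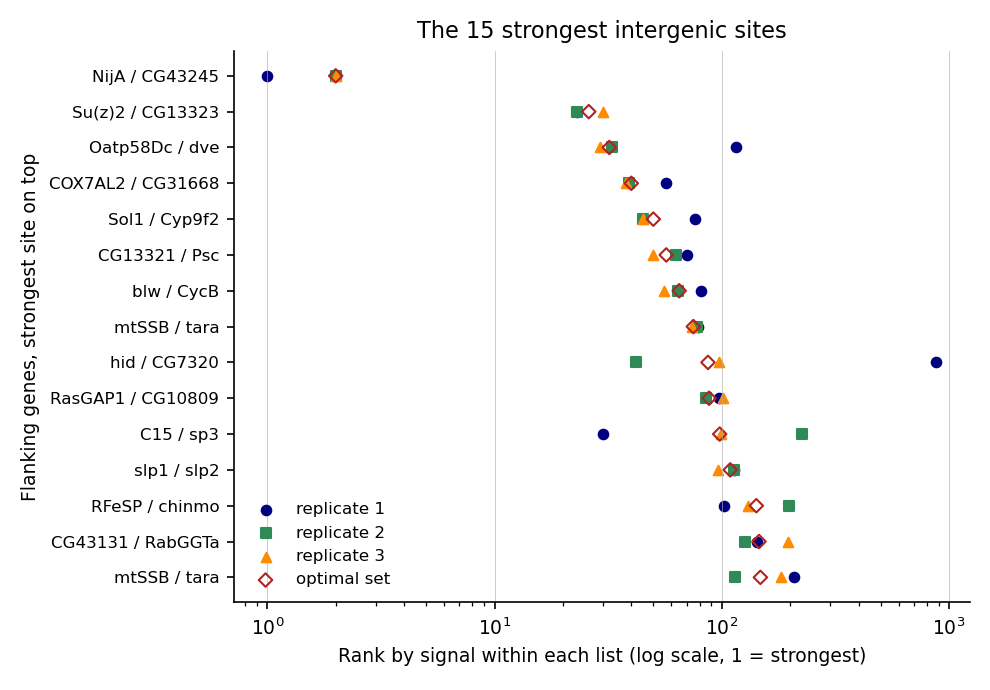
Rank by deposited signal within each list (log scale, 1 is the strongest) of the 15 strongest intergenic sites, in replicates 1, 2 and 3 (filled marks) and in the optimal set (open diamonds), named by their flanking protein-coding genes. The top site ranks 1, 2 and 2 in the replicates, and the hid site has the widest range of ranks, from 880 in replicate 1 to 42 in replicate 2.

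The strongest intergenic site lay between NijA and CG43245 on 3L, at position 10737157. Its signal of 10608 was the second highest of all optimal regions. It had 2228 in replicate 1, 5016 in replicate 2 and 3381 in replicate 3, and ranked 1, 2 and 2 in those lists. It stood in a gap of 75.0 kb between divergent genes, 34.8 kb from the nearest start, that of CG43245, and NijA, which encodes a ninjurin, a cell surface protein, was 40.3 kb away on the other side. The next intergenic site ranked 26 in the optimal set.

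The second strongest site (3154) lay between CG13323, whose transcript was 9.39 kb away, and Su(z)2, a Polycomb group gene, 27394 bp away. It had 794, 1406 and 970 in replicates 1, 2 and 3. A site of 2307 lay between CG13321, 2.50 kb away, and Psc, another Polycomb group gene, 7787 bp away, with 566, 959 and 789. The gene dve, which encodes a homeodomain protein of the midgut and other tissues, had a site of 2820 that lay 566 bp upstream of its start, with 455, 1228 and 982. A replicate value is the highest signal among the replicate's regions that overlap the site, and the dve site shares its values with an overlapping optimal region. By rank, the first of these sites stood at 23, 23 and 30, while the dve site was lower in replicate 1 (115) than in replicates 2 and 3 (33 and 29).

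The remaining sites of the 15 stood near genes of varied function. The site of 2589 between COX7AL2 and CG31668 had 609, 1136 and 862. The site of 2419 between Sol1 and Cyp9f2, a cytochrome P450 gene, lay in a gap of 437 bp between the ends of 2 convergent genes and had 542, 1080 and 798. The site of 2223 between blw, a subunit of ATP synthase, and CycB, the mitotic cyclin B, also lay between 2 gene ends, 1.34 kb apart. Both of these gaps hold no gene start, and the nearest starts were 1.29 kb and 3.35 kb away.

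Of the 15, 2 lay upstream of tara, which encodes a regulator of transcription and the cell cycle, in the gap shared with mtSSB. Their signals were 2082 and 1572, at 3.16 kb and 1.13 kb from the tara transcript, and their nearest start was that of lncRNA:CR45643. The first had 533, 885 and 668 in replicates 1, 2 and 3, and the second had 358, 746 and 472. Another intergenic site, of 840 in the pooled list, had the same values as the first in replicates 2 and 3. The optimal summit nearest to the first lay 311 bp away. The site 785 bp upstream of hid, an inducer of cell death, had 1913 in the pooled list and 188, 1116 and 600 in the replicates. Its rank was 880 in replicate 1, 42 in replicate 2 and 97 in replicate 3, the widest range of ranks of the 15. An overlapping optimal region with its summit 208 bp away had the same replicate values, so they cannot be assigned to either summit. The site 662 bp upstream of RasGAP1, an inhibitor of Ras signalling, had 1911, with 485, 851 and 593.

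The site 580 bp upstream of sp3, in the gap shared with the homeobox gene C15, had 1867, with 734, 563 and 595, and ranked 30 in replicate 1, 226 in replicate 2 and 99 in replicate 3. The site between slp1 and slp2, forkhead pair-rule genes, lay 4.33 kb upstream of slp2 with 1787, and had 457, 748 and 602. The chinmo site of 1592 lay 12.6 kb upstream of the gene, which encodes a BTB zinc finger protein of neuronal temporal identity, and had 479, 587 and 543. The last was 4.08 kb upstream of CG43131 with 1574, and had 410, 712 and 459.

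The strongest site of the X had 1506 and lay between the divergent genes CG3149 and AdamTS-B, with 407, 543 and 515 in replicates 1, 2 and 3. The strongest of chromosome 4 had 1226, between dati and lgs, a co-activator of Wnt signalling, with 422, 419 and 379. By rank the X site stood at 146, 252 and 144 and the chromosome 4 site at 132, 431 and 315.

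Most intergenic sites stood within a few kb of a start. The median distance from summit to nearest transcript start was 3160 bp (quartiles 1380 and 6225 bp, longest 43277 bp), against 3387 bp for the lower-ranked intergenic summits. A start lay within 2 kb of 362 of 990 sites (36.6%), against 1574 of 4961 lower-ranked summits (31.7%; odds ratio 1.24, Fisher's exact test, adjusted p = 0.00570). Of all sequence that meets the position rule, 20.3% lay within 2 kb of a start. Among the strongest of each replicate the share was 37.1% ± 1.20, against 31.8% ± 1.40 in the rest of each list (SD, n = 3). The excess was at short range: 16.8% of sites and 12.2% of lower-ranked summits lay between 501 and 1000 bp, and the next bin, up to 2 kb, held 19.8% and 19.5%. With a promoter window of 1000 bp the odds ratio was 1.09 and did not pass, and with the strongest site per gap it was 0.976.

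**Figure D4:**
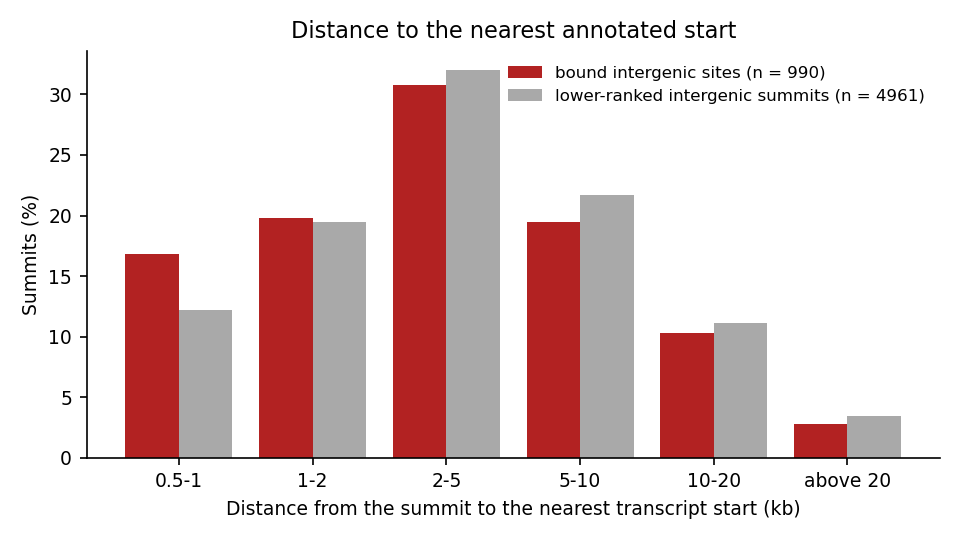
Percent of summits by distance to the nearest annotated transcript start (kb), for bound intergenic sites (left bars) and lower-ranked intergenic summits (right bars). The nearest bin holds 16.8% of bound sites and 12.2% of lower-ranked summits, and the bins beyond 2 kb hold slightly fewer bound sites.

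The rule leaves a sharp edge at 500 bp. Outside transcripts, 57 sites lay 501 to 600 bp from a start, with a median signal of 263, and 65 promoter sites lay 401 to 500 bp from one, with a median of 317. The nearest start belonged to a protein-coding gene at 662 sites, to a noncoding RNA gene at 300 and to a tRNA gene at 25. Summits lay upstream of the nearest start at 612 sites (61.8%), against 60.1% of lower-ranked summits.

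The 3 sites farthest from any start were weak. The farthest, 43.3 kb from a start, lay in the 121 kb gap between CG10651 and CG17571 with a signal of 277, and its summit was in an annotated transposable element. The second, at 37.7 kb, had 200 and lay only 823 bp beyond the end of the bab2 transcript, in the gap between the leg and ovary patterning genes bab1 and bab2. The third, at 36.1 kb, had 218 and lay in the 117 kb gap between vvl, a POU domain gene, and Prat2.

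Tandem gene pairs flanked 500 of the sites, divergent pairs 309, convergent pairs 180, and 1 site lacked a gene on one side. The divergent share was 31.2%, against 28.2% of lower-ranked summits (odds ratio 1.16, Fisher's exact test, adjusted p = 0.0648), a difference that did not pass. Of the sequence that meets the rule, 23.3% lay between divergent genes and 21.9% between convergent ones. By replicate, the divergent share was 31.3% ± 0.726 among the strongest and 28.5% ± 0.885 in the rest (SD, n = 3). It passed among the 426 sites above the median signal (odds ratio 1.31, Fisher's exact test, adjusted p = 0.0239). The nearer gene turned its 5' end to the site at 53.7% of bound and 52.6% of lower-ranked sites. The gaps were long, with a median of 19272 bp, against 21048 bp, and 96 sites stood in gaps above 50 kb.

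Intergenic sites came in groups. Another optimal summit lay within 5 kb of 585 of 990 sites (59.1%), against 1971 of 4961 lower-ranked summits (39.7%; odds ratio 2.19, Fisher's exact test, adjusted p = 3.8e-28). Lower-ranked regions overlap no optimal region by definition. With neighbours nearer than 500 bp not counted, the odds ratio was 1.94 (Fisher's exact test, adjusted p = 2.8e-20), and with the strongest site per gap it was 1.69. By replicate the share was 59.5% ± 0.302 among the strongest and 41.3% ± 4.02 in the rest of each list (SD, n = 3). The neighbours were mostly intergenic too: another intergenic site lay within 5 kb of 445 sites, and a promoter site within 5 kb of 220. At the other extreme, 21 sites had no other optimal summit within 50 kb. The regions of 89 sites overlapped another optimal region, so close summits can share signal, and 81 sites had the same values in all replicates as an overlapping optimal region, as at ph-d, where the summits lie 200 bp apart.

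**Figure D5:**
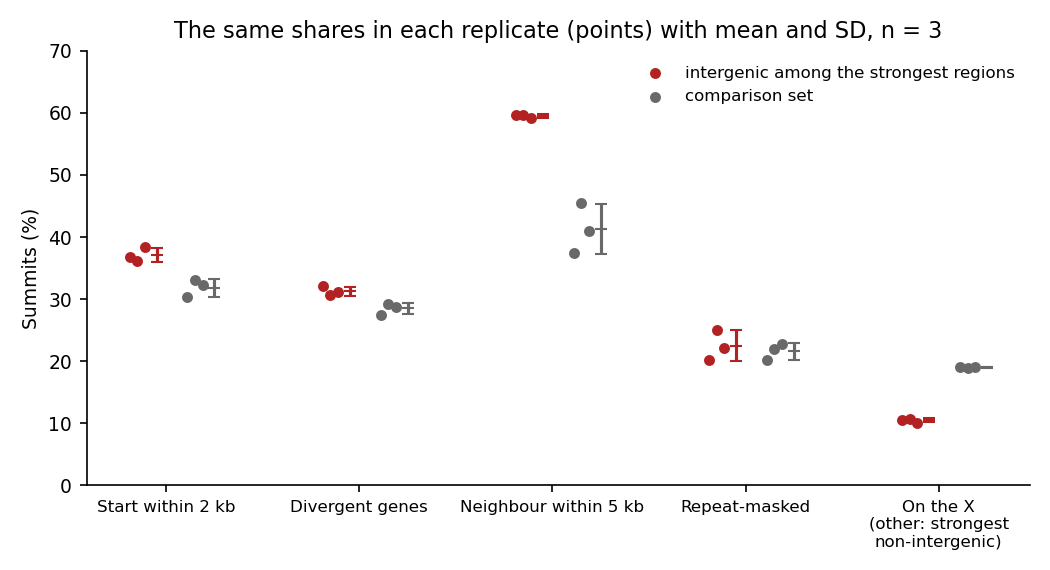
Shares (%) in the strongest regions of each replicate, with 1 point per replicate and the mean and SD beside them (n = 3). Left points are intergenic summits. Right points are the intergenic summits in the rest of that list or, for the X, the strongest summits that are not intergenic. The neighbour and X pairs are the farthest apart, and the repeat-masked pair overlaps.

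The 990 sites fell in 553 gaps between protein-coding genes, 354 with a single site, 97 with 2, 49 with 3 and 53 with 4 or more. The fullest gap, between hng3 and CG13898 on 3L, had 12 sites over 40.4 kb, with signals of 212 to 855 and a median of 338, and 8 of them were strong in all 3 replicates. The gap between Ids and sty, which encodes the receptor tyrosine kinase inhibitor Sprouty, had 11 sites in 21.1 kb with signals of 215 to 1122, the densest of these at 5.22 sites per 10 kb. The gap between CG7320 and CheA75a had 11 sites (191 to 783), and that between CG44362 and CG7560 had 10 (192 to 1034). The gap of the strongest site, between NijA and CG43245, had 9 sites with a median of 469. A gap upstream of chinmo, shared with RFeSP, also had 9 sites, with signals of 253 to 1592. Of the 8 gaps with 9 or more sites, 7 lay on 3L. That arm held 137 of the 553 gaps with a site (24.8%) and 24 of the 53 with 4 or more.

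Intergenic sites were unevenly spread over the chromosome arms. They were more frequent on 3L than other optimal sites were, with 333 of 990 (33.6%) against 20.0% (odds ratio 2.03, Fisher's exact test, adjusted p = 5.0e-19), and less frequent on the X, with 102 (10.3%) against 19.1% (odds ratio 0.486, Fisher's exact test, adjusted p = 7.5e-12). On the X the share was 10.5% ± 0.337 among intergenic and 19.0% ± 0.0567 among other strong summits of each replicate (SD, n = 3). The share on 2L was higher (22.1% against 18.3%), and the shares on 2R (13.1% against 18.1%) and 3R (20.1% against 24.0%) were lower. On 3L, 163 of the 333 sites stood in gaps of 4 or more. The same held for 65 of 219 sites on 2L, 43 of 199 on 3R, 16 of 102 on the X, 8 of 130 on 2R and 0 of 7 on chromosome 4. With 1 site per gap the odds ratio was 1.32 on 3L (Fisher's exact test, adjusted p = 0.0279) and 0.643 on the X (Fisher's exact test, adjusted p = 0.00333), and the differences on 2L, 2R and 3R did not pass.

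Per Mb of sequence that meets the rule, 3L had 36.7 sites (95% Poisson interval 32.9 to 40.9), 2L 32.6, 3R 25.9, X 19.2 (15.7 to 23.3) and 2R 17.5 (14.6 to 20.7). Chromosome 4 had 7 sites in 0.245 Mb. The lower-ranked summits had 157 per Mb on 3L and on 2L, 119 on the X and 94.7 on 2R, so their density was also low on the X and on 2R. Over all arms the densities were 27.2 bound sites and 136 lower-ranked summits per Mb. The sexes were pooled in these embryos, and what dosage of the X does to its signal was not tested.

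Few summits lay in annotated transposable elements, while repeat-masked summits were more common. The summit was in an annotated transposable element at 6 sites (0.606%), against 73 lower-ranked summits (1.47%; odds ratio 0.408, Fisher's exact test, adjusted p = 0.0382), while 10.8% of the sequence that meets the rule is annotated so. The call rests on 6 sites and was lost when any 1 replicate was left out, at odds ratios of 0.421 to 0.524. The summit base was repeat-masked at 203 sites (20.5%) and at 22.0% of lower-ranked summits, which did not differ past the threshold (odds ratio 0.915, Fisher's exact test, adjusted p = 0.311), against 26.6% of the sequence that meets the rule. The handling of reads that match several repeats is not stated in the labels.

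The nearest protein-coding genes were looked up in lists of developmental regulators, chromatin protein genes and translation factors. Of 9 gene lists with 419 matched names, at least 1 member was the nearest coding gene of 163 sites (16.5%), against 14.3% of lower-ranked summits. Homeobox genes were nearest to 46 sites (4.65%, against 4.50%) and other patterning transcription factors to 39 (3.94%, against 3.73%). Signalling genes were nearest to 28 (2.83%, against 2.02%), and axon guidance and adhesion genes to 25 (2.53%, against 2.36%). Proneural and neural genes were nearest to 10 (1.01%, against 0.423%), 7 of them at chinmo. Chromatin protein genes had 6 sites (0.606%, against 0.645%) and mesoderm and muscle genes 4 (0.404%, against 0.363%). The list of hormone and nuclear receptor genes, which also holds genes that act with them, had 5 (0.505%, against 0.282%). Translation factor genes had 0, which allows a share of up to 0.303% (3 sites of 990, for counting error only), against 0.0202% of lower-ranked summits. That 0 therefore does not set the list apart. These are counts with no test, and several sites can share a gene.

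The homeobox list does not hold dve, whose stronger site is described above. The strongest site of the list (1352) lay 8.33 kb beyond the end of abd-A, a Hox gene, with 504, 452 and 382 in replicates 1, 2 and 3. A site of 745 lay 5.04 kb beyond the end of eyg, a Pax gene of eye and salivary gland development, with 167, 347 and 239. A site of 718 lay 29.1 kb from vvl, which had 6 sites in all, with 192, 312 and 217. By rank the abd-A site stood at 86, 374 and 308, and the eyg site at 1123, 631 and 807.

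Patterning factors were led by slp2, then by bin, the FoxF factor of visceral mesoderm, whose site of 1388 was 1.29 kb upstream with 370, 514 and 495. Doc2, a T-box gene of the amnioserosa and dorsal mesoderm, had a site of 694 with 170, 291 and 219. Neural genes were led by 3 chinmo sites, the second of 1363 with 348, 565 and 431 and the third of 679 with 189, 288 and 218.

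Signalling genes were led by 2 sites beyond the end of sty, of 1122 (289, 490 and 332) and 1042 (231, 497 and 312). Next came aop, which encodes the ETS repressor Yan, with 760 (199, 325 and 259). Adhesion and guidance genes were led by ds, with 806, then by robo2, a receptor for Slit, with 804 (207, 315 and 271). The third was a site 5.03 kb beyond the end of 18w, a Toll family receptor, with 759 (150, 361 and 239). All of these were among the strongest regions of each replicate.

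Chromatin protein genes were led by ph-d, a Polycomb group gene, whose 2 sites had 1340 and 804 in the pooled list and shared replicate values of 349, 544 and 452. The third was lola, a BTB zinc finger gene, with 524 (132, 215 and 174). The hormone list was led by Hr51, a nuclear receptor, with 518 (187, 161 and 172). That site lay 289 bp beyond the end of Hr51, and its nearest start was that of unc-5, 799 bp away. Next were Blimp-1, a repressor that times ecdysone responses, with 465 (138, 172 and 173), and Imp with 226 (81.6, 89.3 and 57.7). Muscle genes were led by zfh1, with 445 (115, 180 and 134), Act87E, an actin gene, with 432 (94.4, 183 and 156), and rhea, which encodes talin, with 264 (86.5, 98.1 and 64.8). The Act87E site lay 171 bp beyond the end of the gene, in a gap of 491 bp to the end of yrt. The Imp and rhea sites were each among the strongest regions of 2 replicates and not of replicate 3.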

How the data were processed

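Regions came from ChIP-seq of CG4424-GFP embryos in 3 biological replicates, sonicated to 200 to 800 bp per the labels. The authors deposited, per replicate and pooled, region lists with a summit and a caller's signal, and an optimal set thresholded on reproducibility (IDR), per their notes. The caller, the aligner and the scale of the signal were not given in the sources used here. No read counts were used, which leaves depth unknown, and intervals reflect counting error alone. Positions are on dm6, counted from 1.

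Starts and transcripts were those of Ensembl release 115. Lower-ranked regions are pooled regions that overlap no optimal region. The pooled list is labelled as peaks and background used as input for IDR. Lower-ranked regions therefore mix weaker sites with background, in unknown parts, in every comparison that uses them. Replicate spread used the 6420 strongest regions of each replicate, from which the optimal set was also drawn. Flanks are windows centred 500 bp away. Motifs were searched on both strands. Fisher's exact, exact McNemar and exact sign tests were two-sided, with Benjamini-Hochberg adjustment over 12 site comparisons, 6 arms, 32 consensus sequences or 2080 hexamers. Paired odds ratios had 0.5 added to both counts. The consensus sequences were TATCGATA (DREF and BEAF-32 palindrome), CGATA (BEAF-32), AGGTGGC (insulator protein CTCF), TTGCATAC (Su(Hw)), GGTCACAC (M1BP), GTATNTTT (Ohler 6), CANCNCTA (Ohler 7), TATAAA (core promoter, TATA box), TCAGT (initiator), GAGAG (element of GAGA factor), CAGGTAG (Zelda), CATATG (Twist), CAGGTG (Snail), TAATTA (homeodomain), TAATCC (bicoid), TTTATTG (caudal), TTTTTTA (hunchback), AGATAA (factors of the GATA family), ACCGGTT (grainyhead), CCGGAAG (ETS factors), GTGGGAA (Notch effector Suppressor of Hairless), CTTTGAT (Wnt effector TCF), TTCNNNGAA (effector of JAK signalling, STAT), GGAAAACC (dorsal), TATTTTTA (MEF2), TAAACA (forkhead), AGGTCA (nuclear receptors), TCAAGTG (tinman), CATTCC (scalloped), GCCAT (PHO), TTTGGCGC (E2F) and GGCGCC (Smad protein MAD). The shorter BEAF-32 word lies within the palindrome.

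Members and lists were chosen with earlier results of these data known, and 16 listed names did not match the annotation. Sites were named by rule: the 15 strongest, the 3 farthest from a start, the 3 of highest signal in each list, the strongest on each arm and the 5 gaps with most sites. The further sites with a Su(Hw) core and the RFeSP gap were chosen after their values were seen. Alternatives were the promoter window, protein-coding genes only, the region middle, the regions of highest signal, each replicate left out, and other distances, overlaps and windows. Tests were run with scipy 1.17.1 under Python 3.11.15 (pandas 2.3.3, numpy 2.4.6) and tested on simulated data, and plots were drawn in matplotlib 3.10.9.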

Additional observations from a re-analysis of the deposited data

How the results depend on the processing

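The 3 replicates form 1 group, so no samples could be paired between groups. Paired within replicates, the 2 classes of sites kept 1 direction in all 3 for each site comparison in the replicate lists and for the X, except the repeat-masked share (higher in 2, lower in 1). Their exact two-sided permutation p was 0.250, the smallest that 3 pairs can give, a check added after seeing the data. The number of sites moved to 426 when only the regions of highest signal were kept, and was 748 to 801 without each replicate. The AT-rich summit, the near neighbours and the X share kept their direction and call under every alternative, at odds ratios of 3.54 to 4.89, 1.69 to 2.61 and 0.436 to 0.643 apart from the replicates left out. The divergent share passed at odds ratios of 1.23 (promoter window 250 bp), 1.20 (protein-coding genes only), 1.16 (region middle) and 1.31 (regions of highest signal), and was 1.18 to 1.22 without each replicate, passing without replicates 2 and 3 but not without replicate 1. The repeat-masked share turned to 1.01 at 250 bp and passed at 0.647 with 1 site per gap. The start within 2 kb was lost at 1.09 (window 1000 bp) and turned to 0.976 with 1 site per gap. The transposable element share was lost at 0.349 (window 1000 bp), at 0.475 (highest signal) and at 0.421 to 0.524 without each replicate.

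With 1 site per gap, signal against all other sites was lost at 0.982, replicate overlap was lost at 0.936, and both turned against intron sites (1.14 and 1.07), where keeping the strongest site raises both. Among the regions of highest signal the overlap turned to 1.77 against all others, 2.10 against promoters and 1.20 against introns, since nearly all these regions overlap every replicate. There 1 consensus sequence passed against flanks, 3 against promoters and 219 hexamers, with fewer sites. With windows of 100 bp to each side, 8 sequences passed against promoters. In the 227 sites of like GC content 0 consensus sequences and 0 hexamers passed, and TATAAA (0.922), TAATTA (0.744), Ohler 6 (1.00), MEF2 (1.00) and TAAACA (1.00) were no longer higher, while the Su(Hw) core (2 summits and 0 flanks), the initiator (55 and 33) and the hunchback site (27 and 23) were still higher without passing. The cause was not tested. The comparisons with 1 site per gap, with near neighbours left out and with like GC content were chosen after seeing the data. Neighbouring sites are not independent, so p-values over sites are too small.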
